A study of Mus musculus with 8 samples.

Results

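The 10 genes described here encode the apolipoproteins Apoa1, Apoa2, Apoa4, Apoa5, Apob, Apoc1, Apoc2, Apoc3, Apoe and Apom. They were chosen by symbol, as a family, and are 10 of the 23282 gene rows counted in each of 8 libraries. Libraries were made by QuantSeq, which sequences a short stretch near the 3′ end of each polyadenylated transcript, so that counts do not scale with transcript length. Levels of different genes can still differ by how well each 3′ end is captured and counted, which was not measured. Values are CPM, counts scaled to a common library total. Liver and uterus were taken from female CD-1 mice, an outbred stock. All animals, controls included, were ovariectomized at 6 weeks of age, which removes the main source of estrogen, and rested for 1 week. They then received by mouth for 7 days either no test agent (control), BPA (bisphenol A, used to make plastics and a weak ligand of estrogen receptors) at a daily dose of 200 mg/kg, KRG (Korean red ginseng) at a daily dose of 1.2 g/kg, or both agents. Each of these 4 groups has 1 library per tissue. How many animals each library stands for, and whether both tissues came from the same ones, is not given in the sources used here.

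Apolipoproteins coat the particles that carry triglyceride and cholesterol in blood. The liver makes most of them: APOB is the scaffold on which very low density lipoprotein is built, APOA1 and APOA2 are the main proteins of high density lipoprotein, and the smaller exchangeable proteins move between particles and set how fast lipases empty them and receptors take them up. Transcription of these genes in hepatocytes is classically tied to HNF4A and other nuclear receptors of liver.

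Several of the genes lie close together. In GENCODE M21 on GRCm38 (mm10), Apoa1, Apoc3, Apoa4 and Apoa5 occupy 43340 bases of chromosome 9 (chr9:46228580-46271919). Apoe, Apoc1 and Apoc2, with the unlisted family member Apoc4 between them, occupy 27610 bases of chromosome 7 (chr7:19671579-19699188). Apoa2 is at chr1:171225054-171226379, Apob at chr12:7977648-8016835 and Apom at chr17:35128997-35132050. All are protein coding. Apoc2 (chr7:19671579-19677941, minus strand) shares its 3′ end with a read-through transcript from Apoc4 that RefSeq lists as Gm44805 (chr7:19671579-19681460), and the count files carry both. The read-through row held between 94.2% and 98.0% of the count of the Apoc2 row in the liver libraries, so reads of the pair cannot be told apart by these counts and Apoc2 values are uncertain to that extent. Apoa4 and Apoa5 also have antisense transcripts annotated over them, and whether strand was used in counting is not given in the sources used here.

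The bases before the transcription start are shown for the genes whose liver level varied most between libraries, Apoa4, Apoc2 and Apob (RefSeq promoter windows of 250 bases on GRCm38.p6, 5′ to 3′, cut where GENCODE places the start further upstream). Of the 10 genes, 8 matched the promoter table, all but Apoc1 and Apoc3. Capitals mark 3 short motifs, searched on both strands and chosen after the sequences had been seen: CAAAGT (part of the HNF4 site), AGGTCA (the nuclear receptor half-site) and TATAAA (the TATA box).
Apoa4, chr9:46240594-46240695, plus strand: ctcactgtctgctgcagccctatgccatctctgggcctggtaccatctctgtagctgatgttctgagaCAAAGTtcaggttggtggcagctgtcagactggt
Apoc2, chr7:19677942-19678191, minus strand: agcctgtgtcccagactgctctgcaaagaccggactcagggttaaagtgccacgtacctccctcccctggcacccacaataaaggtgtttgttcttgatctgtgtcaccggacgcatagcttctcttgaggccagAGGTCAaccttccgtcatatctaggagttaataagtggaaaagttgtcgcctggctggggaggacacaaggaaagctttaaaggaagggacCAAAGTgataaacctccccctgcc
Apob, chr12:7977427-7977647, plus strand: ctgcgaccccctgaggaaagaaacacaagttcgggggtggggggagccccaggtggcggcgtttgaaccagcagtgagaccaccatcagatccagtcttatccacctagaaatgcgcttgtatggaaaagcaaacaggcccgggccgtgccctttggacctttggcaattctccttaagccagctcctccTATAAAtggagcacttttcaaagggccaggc

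CAAAGT was found in 2 of the 8 windows, those of Apoa4 and Apoc2, beside 12.6% of 32851 promoter windows of the same length. In Apoa4 its first base lies at -34 from the GENCODE start but at -182 from the RefSeq start. In Apoc2 it lies at -24 from both. TATAAA was found in 3 of 8 windows (Apoa2, Apoa5 and Apob) beside 12.4% of all windows. Its first base lies at -212 in Apoa2 and at -56 in Apoa5 from both starts. In Apob it lies at -31 from the GENCODE start and at -60 from the RefSeq start. The Apoc2 window alone among the 8 held AGGTCA (14.0% of all windows). The windows of Apoa1, Apoe and Apom held none of the 3 letter strings, which says only that these letters are not in those windows. For these counts each window was searched in full, as placed by the RefSeq start. By the GENCODE start, nearly all of the Apom window and part of the Apoa1 window lie inside the gene. The Apom window therefore says almost nothing about the bases before its GENCODE start.

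The libraries held between 12372073 and 15290950 counts. The ribosomal RNA precursor Rn45s took 8.30% to 12.4% of each and was left in the totals. The 10 hepatocyte markers were all detected in all 4 liver libraries, at summed levels of 28308 to 32382 CPM. Genes of other tissues differed between the liver libraries. Acinar pancreas markers summed to 1586 CPM in the BPA liver beside 154 to 239 CPM in the other livers. Of the 13 markers, 8 were at 0 counts in the control liver and 4 in the liver given both, and none in the BPA and KRG livers. Skeletal muscle markers summed to 191 and 528 CPM in the control and KRG livers beside 4.55 and 2.67 CPM in the BPA liver and the liver given both. Erythroid markers ran from 1781 CPM in the liver given both to 7346 CPM in the BPA liver. Enterocyte markers, relevant because the gut also makes apolipoproteins, summed to 28.4 to 39.7 CPM in liver, with 5 or 6 of 10 at 0 counts.

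The 10 apolipoprotein genes together took between 2.52% and 2.82% of all liver counts. Their mean levels spanned a 55.1-fold range, from Apoe down to Apob, and Apoe, Apoa2 and Apoc1 alone made up 72.8% to 74.4% of the summed count. Apoe ranked 5th and Apoa2 6th of all gene rows by mean liver level, Apoc1 ranked 21, Apoa1 38, Apoc3 62 and Apoa5 70, while Apom, Apoc2, Apoa4 and Apob ranked 443, 512, 768 and 960. In order of mean level, the ranges over the 4 livers did not overlap between neighbours at 5 of 9 steps. They overlapped between Apoc3 and Apoa5, Apom and Apoc2, Apoc2 and Apoa4, and Apoa4 and Apob. Within each of the 4 livers Apoc2 was above Apoa4. In the other overlapping pairs the order changed between livers and is not resolved.

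**Figure D1:**
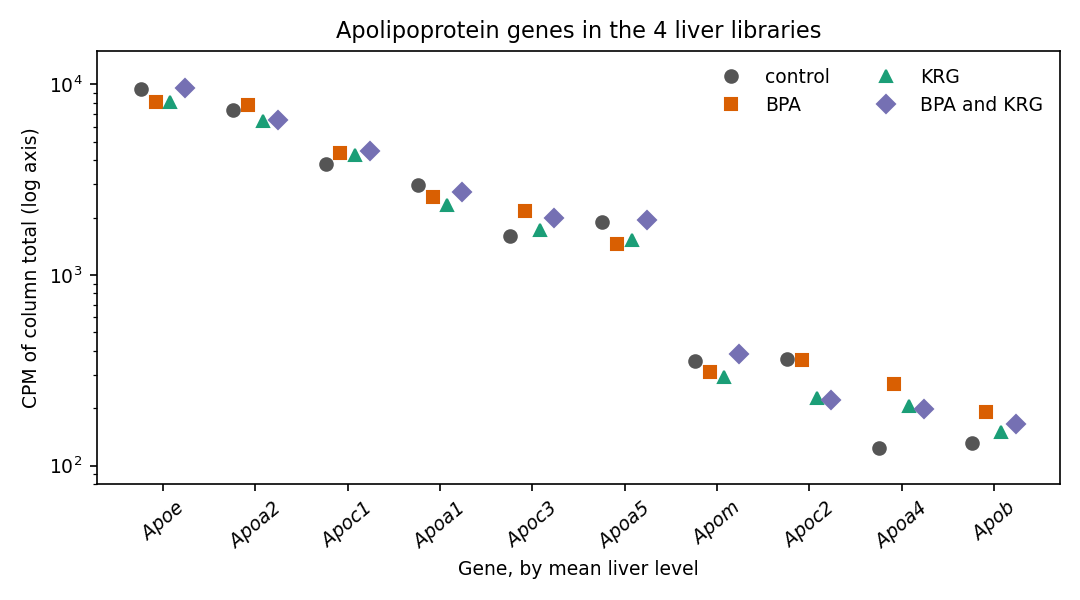
Level of each apolipoprotein gene in the 4 liver libraries, as CPM of the column total on a log axis; each point is 1 library. Levels run from Apoe (8059 to 9534 CPM) to Apob (131 to 192 CPM), a far wider span than that between the libraries of any gene. The span between libraries is widest for Apoa4 and Apoc2, and ranges of some neighbouring genes overlap.

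The genes for proteins of high density lipoprotein differed little between livers. Apoa1, which forms the particle and activates the enzyme that esterifies its cholesterol, stood at 2982 CPM in the control liver, 2568 with BPA, 2334 with KRG and 2736 with both. Apoa2 stood at 7330, 7777, 6444 and 6481 CPM in the same order. Apom, the carrier of sphingosine-1-phosphate, stood at 354, 308, 293 and 384 CPM. The highest liver was 1.28 times the lowest for Apoa1 and 1.21 times for Apoa2, and none of the pairwise ratios of these 3 genes reached 1.5-fold.

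Apob, the scaffold of very low density lipoprotein, was at 131 CPM in the control liver, 192 with BPA, 149 with KRG and 166 with both. The control library was the lowest and the BPA library the highest. BPA against control gave a ratio of 1.46 (95% interval of the counts 1.38 to 1.55), just under the 1.5-fold used here as the mark of a difference. Apoe, the ligand by which remnant particles bind their receptors, was at 9401, 8127, 8059 and 9534 CPM in the same order, so that the livers given 1 agent lay below the control and the liver given both.

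Apoa4, which rides on triglyceride-rich particles and on high density lipoprotein, was at 124 CPM in the control liver, 270 with BPA, 205 with KRG and 199 with both. Every treated liver was above the control and the BPA liver was the highest. The BPA level was 2.18 times the control level (2.06 to 2.30), the KRG level 1.65 times and the level with both 1.61 times (1.51 to 1.71). These 3 ratios share the control library.

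Apoc2, the obligate cofactor of lipoprotein lipase, was at 361 CPM in the control liver, 358 with BPA, 227 with KRG and 221 with both. The 2 livers given KRG were the low ones and the 2 without it were alike. KRG against control gave a ratio of 0.629 (0.602 to 0.657), and both against BPA, a pair that shares no library with the first, gave 0.618 (0.590 to 0.648). The read-through row gave 0.621 and 0.608. Apoc4, the next gene upstream, was at 1005, 776, 724 and 936 CPM and gave 0.720 and 1.21, so its 2 KRG pairs lay on opposite sides of 1.

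Apoc3, an inhibitor of lipoprotein lipase and of remnant uptake, was at 1600, 2153, 1720 and 2000 CPM, highest in the 2 livers given BPA. Its ratio was 1.35 (1.32 to 1.37) for BPA against control. Apoa5, which promotes lipolysis, was at 1894, 1461, 1525 and 1953 CPM, with the livers given 1 agent below the other 2. Its ratio was 0.771 (0.757 to 0.785) for BPA against control and 1.34 (1.31 to 1.36) for both against BPA. Apoc1, which slows particle uptake, was at 3833, 4345, 4237 and 4479 CPM, and its lowest library was the control.

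**Figure D2:**
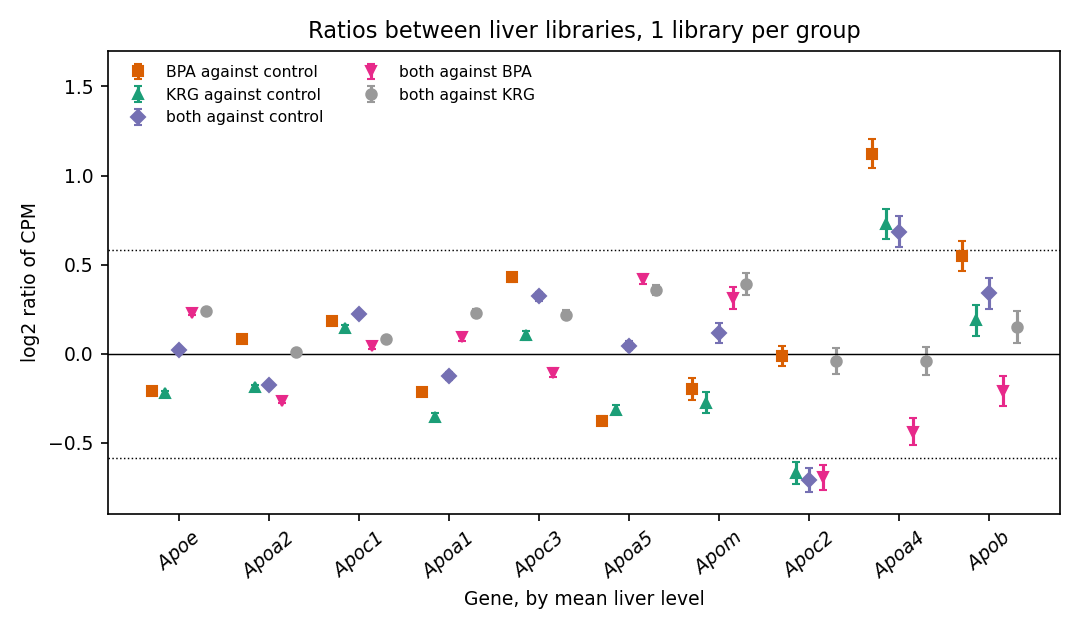
Log2 ratio of CPM between liver libraries for the 10 genes and 5 pairs of groups; bars are 95% intervals of the counts, which address counting error only, and dotted lines mark 1.5-fold. Apoa4 lies above the upper line in its 3 pairs against control, and Apoc2 below the lower line in its 2 KRG pairs and in both against control.

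Counted over the 10 genes at 1.5-fold on the log2(CPM + 1) scale, where the pseudocount shrinks differences of weakly expressed genes, 1 was higher with BPA than in control (Apoa4) beside 3.31% of the 6709 genes averaging 10 CPM or more in liver, and 0 were lower beside 10.6%. KRG against control had 1 higher (Apoa4, background 3.37%) and 1 lower (Apoc2, background 4.72%). Both against control had the same 1 higher and 1 lower, beside 3.32% and 4.07% of all genes. Both against BPA had 0 higher beside 9.52% and 1 lower (Apoc2) beside 3.29%. Both against KRG had 0 higher beside 6.42% and 0 lower beside 3.86%. With 10 genes, each count of 1 is a single gene, and none of these comparisons of 2 libraries was tested.

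All 10 genes passed the liver filter. The median log2 ratio of the 10 was 0.04 for BPA against control beside -0.08 for all genes, -0.20 beside -0.05 for KRG against control, 0.08 beside 0.04 for both against control, and -0.03 beside 0.12 for both against BPA. The BPA liver sat low as a whole on this scale: scaling by TMM (trimmed mean of M values) moved the all-gene median to 0.03 for BPA against control and to -0.02 for both against BPA. With it, the share of higher genes among those past 1.5-fold went from 23.7% to 39.3% in the former, from 74.3% to 54.6% in the latter, and from 62.5% to 51.0% in both against KRG. Set against the all-gene median, Apoa4 was 1.20 higher and Apob 0.62 higher on the log2 scale with BPA than in control, and Apoc2 stood at -0.81 for both against BPA. Under TMM, Apob thereby passed 1.5-fold for BPA against control (log2 0.66).

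BPA and KRG can each be read in 2 pairs that share no library. No gene of the 10 was past 1.5-fold in the same direction in both BPA pairs, beside 0.566% of all genes higher in both and 0.894% lower in both. The log2 ratio of Apoa4 for BPA was 1.12 without KRG and -0.04 with it, and that of Apoa5 was -0.37 without and 0.36 with. For KRG, 1 gene was lower in both pairs (Apoc2) beside 0.879% of all genes, and 0 were higher in both beside 0.551%.

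A model with BPA and KRG as additive terms, fitted by edgeR's quasi-likelihood test on the 4 livers, has 1 residual degree of freedom and treats any dependence of one agent on the other as error. It called 0 of 10 genes for BPA at an adjusted p under 0.05, with 0 at an unadjusted p under 0.05 beside 5.11% of all genes, in a fit that called 0% of 12093 genes higher and 0.0248% lower. It called 0 of 10 for KRG beside 0.0165% higher and 0.0331% lower, with 1 gene at an unadjusted p under 0.05 beside 3.13% of all genes. That gene was Apoc2, with a log2 change of -0.74 (SE 0.177), with an unadjusted p of 0.00732 and an adjusted p of 0.984 from edgeR. For BPA, Apoa4 had a log2 change of 0.56 (SE 0.348) with an edgeR adjusted p of 0.905. DESeq2 also called 0 of the 10 for each agent.

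The genes nearest in pattern over the 4 livers were found as the smallest root mean square distance of log2(CPM + 1) after centring each gene. For Apoa4 these were Glrx2 (0.06), Cyp2d13 (0.07), Slc38a2 (0.07), Pebp1 (0.08) and Sycp3 (0.08). Glrx2, a mitochondrial glutaredoxin, was at 26.7, 53.2, 41.0 and 40.5 CPM in control, BPA, KRG and both, and Slc38a2, an amino acid transporter, at 53.4, 102, 84.2 and 78.6 CPM. For Apoc2, apart from the read-through row that shares its reads (0.02), they were Ccdc25 (0.03), Cyb5r1 (0.03), Acaa1a (0.05) and Pbld1 (0.07). Acaa1a, a peroxisomal thiolase of fatty acid oxidation, was at 581, 607, 395 and 394 CPM, low in the 2 livers given KRG as Apoc2 was. These are the closest of 6709 genes over 4 libraries, and the names are a description.

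Lists of genes that work with apolipoproteins were set beside them for BPA against control in liver, where 3.31% of all genes were higher and 10.6% lower at 1.5-fold (4.81% and 7.42% with TMM). The lists were not tested against other genes. Of 9 measured other apolipoprotein genes, 0 were higher and 0 lower at 1.5-fold, with a median log2 ratio of -0.03. Apon, a plasma apolipoprotein of mice, had the highest ratio of them, at 516 CPM in control and 748 with BPA. Of 16 measured genes of lipoprotein assembly and secretion, 0 passed in either direction (median -0.11). Mttp, the transfer protein that loads lipid onto APOB, was at 96.2, 90.6, 82.4 and 73.7 CPM in control, BPA, KRG and both. Of 10 measured receptor and uptake genes, again 0 passed (median 0.03), and Sdc1, a heparan sulfate proteoglycan that takes up remnants, was at 396 CPM in control and 266 with BPA.

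Of 14 measured lipases and lipase regulators, 2 were higher with BPA and 2 lower (median -0.04). Angptl4, an inhibitor of lipoprotein lipase, was at 115, 194, 193 and 75.3 CPM, and Ces1g at 59.8, 147, 28.4 and 75.1 CPM. Ces1d, a carboxylesterase that hydrolyses triglyceride, was at 521, 156, 467 and 384 CPM, and Ces3b at 304, 201, 158 and 119 CPM. Carboxylesterases are near-identical copies whose reads the counting could have split, so single members are uncertain. Lpl itself was at 40.7, 30.7, 24.3 and 13.7 CPM, lowest in the liver given both.

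Of 9 measured genes of sterol efflux, 0 were higher with BPA and 2 lower (median -0.27). Abca1, which loads cholesterol onto APOA1, was at 46.0, 20.1, 32.8 and 36.6 CPM, and Stard3 at 22.6, 13.3, 21.8 and 17.9 CPM. Of 26 measured transcription regulators of apolipoprotein genes, 2 were higher with BPA and 8 lower (median -0.23). Srebf1, the lipogenic factor, was at 74.4, 18.5, 46.0 and 96.4 CPM, Onecut1 at 16.7, 6.17, 6.37 and 25.4 CPM, and Foxa2 at 80.9, 47.9, 33.3 and 138 CPM. These 3 were low in the livers given 1 agent and highest in the liver given both. Hnf4a was at 147, 95.4, 126 and 120 CPM. Of 24 other secreted plasma proteins of hepatocytes, 1 was higher (Azgp1, 393 CPM in control and 634 with BPA) and 1 lower (Gc, 2198 and 1342 CPM), with a median of -0.11.

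With both against control, where 3.32% of all genes were higher and 4.07% lower, 0 of the 16 assembly genes, 0 of the 10 receptor and uptake genes and 0 of the 9 sterol efflux genes passed in either direction. Of the 14 lipase genes 0 were higher and 4 lower, of the 26 regulators 1 was higher and 2 lower, of the 9 other apolipoprotein genes 1 was higher and 0 lower, and of the 24 secreted plasma proteins 3 were higher and 0 lower.

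**Figure D3:**
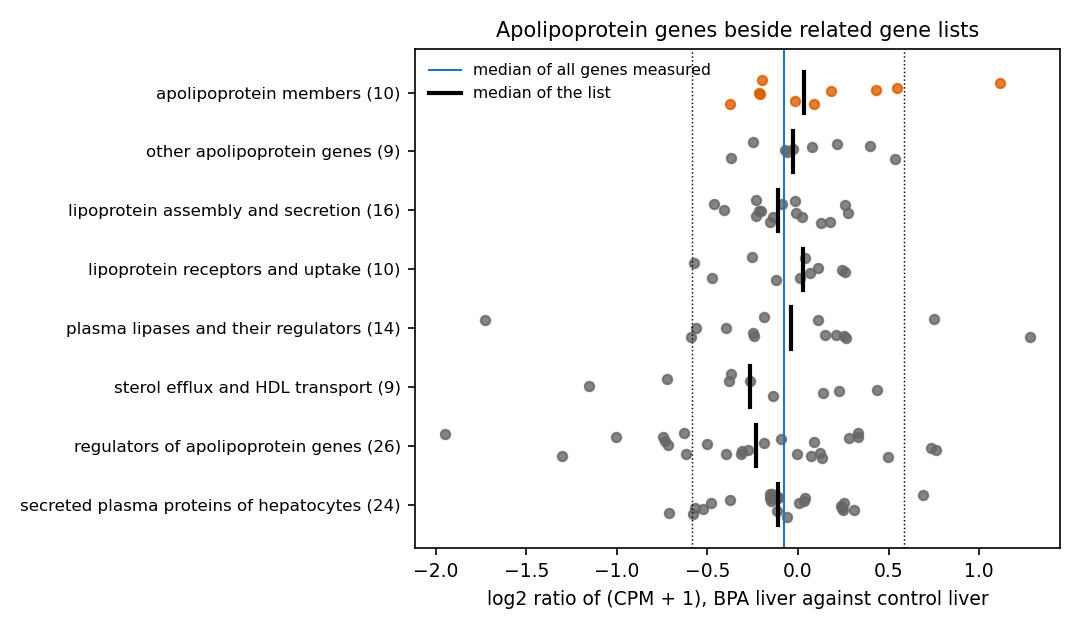
Log2 ratio of (CPM + 1) between the BPA liver and the control liver for the 10 apolipoprotein genes and 7 related lists; each point is a gene, the number measured stands after each list, thick bars are list medians, the thin line is the median of all genes (-0.08) and dotted lines mark 1.5-fold. Apart from Apoa4 at 1.12 the apolipoprotein genes lie within the dotted lines, and the points far to the left belong to regulators, lipases and sterol efflux.

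In uterus, Apoe differed little between libraries, Apoc1 differed more, and the other 8 genes were close to 0 wherever BPA was given. Apoe, which macrophages and many other cells also make, was at 479 CPM in the control uterus, 424 with BPA, 597 with KRG and 519 with both, a narrow range of between 5.10% and 7.41% of its level in the liver of the same treatment. Apoc1, also made by macrophages, was at 55.4, 31.4, 146 and 31.8 CPM. It was highest with KRG and lowest in the 2 uteri given BPA, as the other 8 genes were, but stayed well above 0. The other 8 were low but countable in the control and KRG uterus. Apoa2 had 996 counts in control, 10 with BPA, 2280 with KRG and 7 with both. Apoa1 had 535, 16, 1187 and 12 counts, Apoc3 299, 7, 602 and 4, and Apoa5 226, 1, 693 and 4. Apom had 100, 1, 306 and 2 counts, Apoc2 45, 8, 131 and 13, Apob 64, 0, 176 and 0, and Apoa4 13, 0, 68 and 0.

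**Figure D4:**
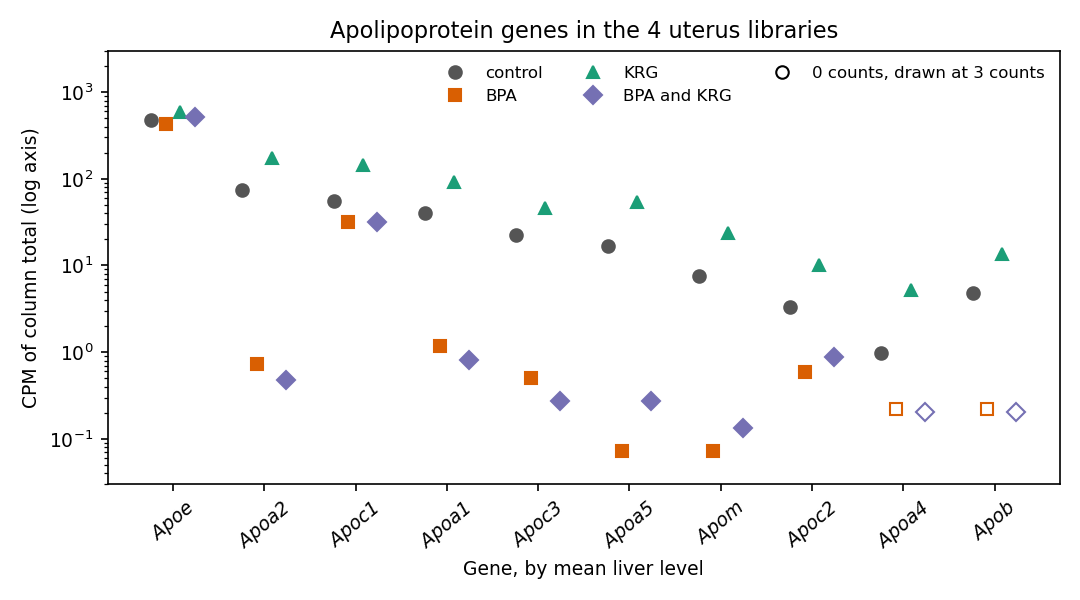
Level of each apolipoprotein gene in the 4 uterus libraries, as CPM of the column total on a log axis; each point is 1 library, and open symbols are libraries with 0 counts drawn at the level of 3 counts. Apoe stays between 424 and 597 CPM, while 8 genes stand well above the BPA libraries in the control and KRG libraries.

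Counted over the 10 genes, BPA against control had 9 lower, all but Apoe, beside 4.41% of the 9198 genes averaging 10 CPM or more in uterus, and 0 higher beside 8.4%. The BPA level was lower by 34.3-fold for Apoa1 (20.9 to 60.4), 102-fold for Apoa2 (55.3 to 214), 43.8-fold for Apoc3 (21.0 to 110), 5.77-fold for Apoc2 (2.69 to 14.2) and 1.76-fold for Apoc1 (1.56 to 1.99). Against 3 counts in the BPA library, Apob was at least 21.9-fold lower and Apoa4 at least 4.44-fold lower. Both against KRG, the other BPA pair, had the same 9 lower beside 11.1% of all genes and 0 higher beside 16.5%. All 9 were thus lower in both pairs, as were 2.08% of all genes, and 0 were higher in both beside 5.32%. Both against control had 9 lower as well, beside 11.5%, and 0 higher beside 11.3%. KRG against control had 9 higher, again all but Apoe, beside 5.83%, and 0 lower beside 7.74%. Both against BPA had 0 past 1.5-fold in either direction, beside 5.01% higher and 8.68% lower. No gene of the 10 was therefore past 1.5-fold the same way in both KRG pairs of uterus, beside 0.478% of all genes higher and 1.13% lower in both.

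On this scale the KRG uterus also sat low, with an all-gene median log2 ratio of -0.12 against control, which TMM moved to -0.00. With TMM the share of higher genes among those past 1.5-fold went from 42.9% to 63.1% in that pair and from 36.6% to 52.2% in both against BPA. Only 6 of the 10 genes passed the uterus filter, Apoa4, Apob, Apoc2 and Apom being below 10 CPM on average, and the counts above are over all 10.

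edgeR's additive model on the 4 uteri called 8 of 10 genes lower with BPA, beside 1.49% of 14719 genes, and 0 higher beside 1.41%. Apoa1 had a log2 change of -6.01 (SE 0.462) and an edgeR adjusted p of 0.00348, and Apoa2 one of -7.65 (SE 0.480) with 0.00220. The highest adjusted p among the 8 was that of Apoa4, 0.0383 by edgeR. Apoc1 (log2 -1.57, SE 0.367, edgeR adjusted p = 0.102) and Apoe (-0.25, SE 0.199, edgeR adjusted p = 0.665) did not pass. DESeq2 called 7, with Apoc1 in and Apoa4 and Apob out. For KRG the edgeR model called 0 of 10 beside 0% of all genes in either direction. At an unadjusted p under 0.05 there were 5 of 10 beside 4.65% of all genes, and DESeq2 called 0 of 10.

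Most measured hepatocyte genes that are not apolipoproteins were high and low in the same uterus libraries. Albumin (Alb) was at 239 CPM in the control uterus, 4.81 with BPA, 407 with KRG and 2.09 with both. The median uterus level as a percentage of the liver level of the same treatment was 1.18% in control, 0.0165% with BPA, 3.71% with KRG and 0.0137% with both for the 8 apolipoprotein genes other than Apoe and Apoc1. For 24 other secreted plasma proteins of hepatocytes it was 1.66%, 0.0444%, 3.69% and 0.0344%. Not all of the 24 fell that far: C3 was at 7.08% in control and 6.18% with BPA, and Rbp4 at 3.01% and 2.30%. At 1.5-fold, 18 of 20 measured genes of this list were lower with BPA than in control, beside 4.41% of all genes. Of 7 measured hepatocyte markers, 4 were. Measured genes are those averaging 10 CPM or more over the 4 uteri. A gene near 0 in both uteri given BPA can pass that filter only through the control and KRG libraries. The filter thus favours genes that are lower with BPA, and these counts are a description only. From control to KRG uterus the 8 genes were a median 2.92-fold higher (2.07 to 5.39) and the 24 genes a median 2.25-fold higher (1.45 to 3.07). The 10 hepatocyte markers summed to 604, 179, 1180 and 143 CPM, with 1 of 10 at 0 counts in each uterus given BPA and none in the others. Their part in the apolipoprotein values of uterus was not tested.

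**Figure D5:**
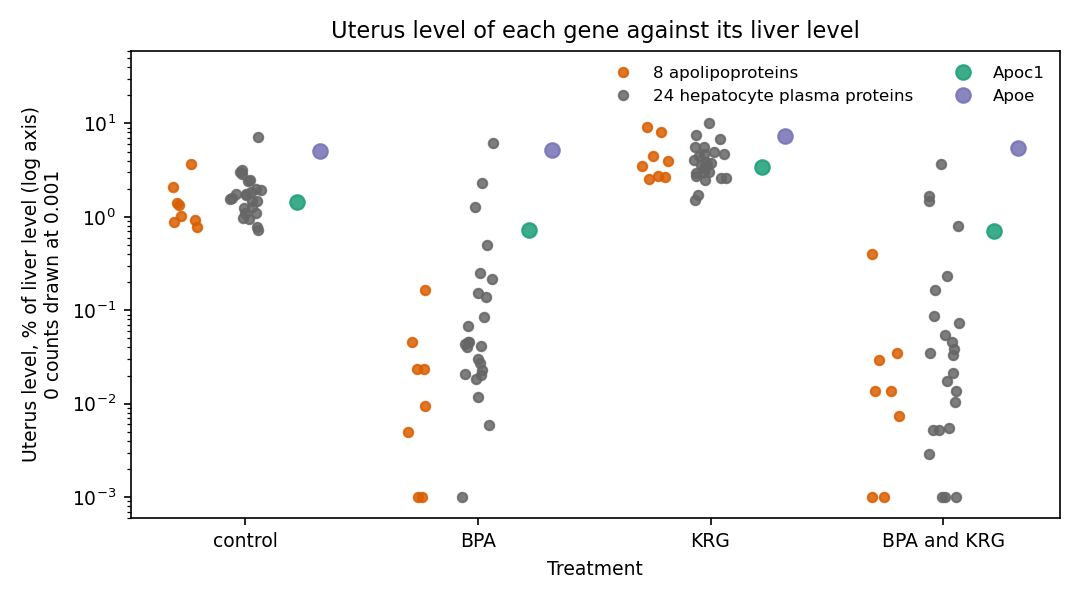
Uterus level of a gene as a percentage of its level in the liver of the same treatment, on a log axis, for 8 apolipoprotein genes, 24 other plasma proteins of hepatocytes, Apoc1 and Apoe; each point is a gene, and genes with 0 counts are drawn at 0.001. Medians of the 8 and of the 24 lie at 1.18% and 1.66% in control and at 0.0165% and 0.0444% with BPA, while Apoe stays between 5.10% and 7.41%.

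Other markers differed between the uterus libraries as well. Macrophage markers summed to 400, 456, 369 and 515 CPM in control, BPA, KRG and both. Their range was narrow, as that of Apoe was, but they were lowest in the KRG library, where Apoe and Apoc1 were highest. Adipocyte markers summed to 5807, 5646, 13158 and 5185 CPM, highest in the KRG library, as the hepatocyte markers and the 10 apolipoprotein genes were. In the 2 uteri given BPA the adipocyte markers lay near the control level, while Apoc1 lay below it. Smooth muscle markers summed to 2741 to 3958 CPM. Bladder and squamous epithelium markers summed to 344 and 141 CPM without BPA and to 3686 and 6851 CPM with it, and uterine epithelium markers to 2001, 2888, 1346 and 3480 CPM. The sums hide markers that went the other way. For BPA against control, 3 of 7 uterine epithelium markers were higher at 1.5-fold and 2 lower. Of the 7 bladder and squamous markers, 5 were higher and 1 lower, beside 8.4% and 4.41% of all genes. Erythroid markers summed to 4999, 2265, 3740 and 814 CPM in control, BPA, KRG and both, lower in the 2 uteri given BPA as the apolipoprotein genes other than Apoe were. Skeletal muscle markers summed to 118, 226, 96.1 and 1787 CPM. In bulk tissue, fewer cells of a type and less RNA per cell cannot be told apart, and the part of these markers in the results was not tested.

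Between the tissues, edgeR's quasi-likelihood test of 4 livers against 4 uteri, with the treatments standing as spread, called 10 of 10 genes higher in liver, beside 31.9% of 14071 genes higher and 40.2% lower. The smallest difference was that of Apoe, log2 5.06 (SE 0.284, edgeR adjusted p = 8.31e-07). SEs were wide for the 8 genes whose uterus level depended on the library, such as Apoa2 (log2 7.71, SE 1.81, edgeR adjusted p = 0.00375). On CPM of the column totals the median of all genes was itself -0.79 for liver against uterus, against 4.12 for Apoe. DESeq2 gave an adjusted p for 6 of the 10 and called those 6.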

How the data were processed

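The authors deposited raw whole-number counts per gene symbol, 1 file per library; per the submitters' processing notes, Bowtie2, edgeR and the mm10 build were used. Which counter was used, and whether it read strand, is not given in the sources used here. Of 23282 rows, 44 repeat a symbol and were kept. Counts were divided by column totals (CPM). Pairs of groups have 1 library each, so they got no test. Ratios carry exact Clopper-Pearson 95% intervals, which address counting error only and leave out spread between animals and between libraries. PCR copies were not marked by molecular identifiers, so even the counting error may be understated. A difference of 1.5-fold in log2(CPM + 1) was counted among genes averaging 10 CPM or more in a tissue; a count of 0 was bounded by 3 counts. Additive and tissue models used edgeR 4.0.16 (TMM, filterByExpr, Benjamini-Hochberg over all genes, adjusted p under 0.05) and DESeq2 1.42.0, in R 4.3.3, tested on simulated data. Each SE given with an edgeR result is the absolute log2 change divided by the square root of the test's F statistic. It restates that test and is not a separate estimate. P-values of the tissue model measure only the spread between these libraries, which differ in treatment. In the additive models the error is the departure from additivity, with 1 residual degree of freedom, steadied by an estimate shared over all genes. No p-value here covers spread between replicate libraries of a group. Named genes were the 10 members, the 3 with the largest ratio of each list in BPA against control and in both against control, and the 5 nearest in pattern to the 2 members of widest liver range. Others named (Hnf4a, Alb) were chosen after their values were seen; a few results are not reported here. The 10 genes and all lists were chosen with earlier results of these data known. Alternatives were other scalings, pseudocounts, filters and folds, and leaving out libraries.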

Additional observations from a re-analysis of the deposited data

Results flagged for a closer look

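In 3 cases a gene differed by more than 1.5-fold one way in liver and the other way in uterus under the same pair of groups, and in none was that difference between tissues tested. Apoa4 had a log2 ratio of 1.12 in liver and -0.98 in uterus for BPA against control. It had a log2 ratio of 0.68 in liver and -0.98 in uterus for both against control; both uterus values rest on 13 counts against 0. Apoc2 had a log2 ratio of -0.67 in liver and 1.35 in uterus for KRG against control, and its uterus counts were 45 and 131.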

How the results depend on the processing

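With 1 library per group, ratios in liver and uterus have no replicate error, and depth limits the uterus values of Apoa4 and Apob most. Of 159 counts of genes recomputed under alternatives, 148 stayed within 1.5 times the value given and 11 did not, and of 920 recomputed ratios of single genes 262 moved outside the counting interval of the value given (or had none, a count being 0), while none of the 42 ratios past 1.5-fold changed direction. BPA against control in liver went from 1 gene to 2 with TMM factors, with DESeq2 size factors and with totals without the 10 genes and Rn45s, Apob being the added gene (log2 0.66, 0.67 and 0.59). Both against BPA in liver went from 1 to 2 with DESeq2 size factors, the added gene being Apoa4 (log2 -0.60). At 2-fold, the counts in liver for KRG against control, both against control, both against BPA and both KRG pairs were each 0, and BPA against control kept 1. With a pseudocount of 0.25, both against BPA in uterus went from 0 to 1 (Apoa5, on 4 against 1 counts), as did both KRG pairs. DESeq2 in place of edgeR gave 6 of 10 for liver against uterus because the other 4 had no adjusted p. Leaving out any 1 library, or both libraries of a treatment, left liver against uterus at 10 to 10 of 10 genes, and with treatment as a replicate block it was 10 of 10. Without the BPA liver, 6 of 9 neighbours in the order of levels did not overlap in place of 5, and Apoa5 came before Apoc3. Of 50 liver ratios, 5 changed sign under another scaling, and the largest of those was 0.09 on the log2 scale. Leaving the marker genes of pancreas, muscle and blood out of the totals, an alternative chosen after seeing the data, left BPA against control at 1 gene and both against BPA at 1.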

Other observations

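Other apolipoprotein genes of uterus differed among themselves. Apof and Apoh, which hepatocytes secrete, were at 42.3 and 22.4 CPM in the control uterus, 69.4 and 66.7 with KRG, 1.75 and 1.09 with BPA and 0.879 and 0.135 with both. Apod, which many tissues make, was at 158 CPM in control, 94.7 with BPA, 59.8 with KRG and 79.5 with both, and so was highest in the control library. Lpl, which fat cells make in quantity, was at 845, 753, 3418 and 1014 CPM in control, BPA, KRG and both, highest in the library where adipocyte markers were highest. Gpihbp1, which holds lipoprotein lipase on the capillary wall, was at 7.32, 6.41, 19.2 and 7.16 CPM in the same order.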
